A study of Mus musculus with 6 samples.

Results

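Platelet-derived growth factors (PDGFs) and their receptors were followed here through 4 ligand genes, Pdgfa, Pdgfb, Pdgfc and Pdgfd, and 2 receptor genes, Pdgfra and Pdgfrb. These 6 genes were taken by symbol from the 41605 genes listed in each library, all 6 were found in all 6 libraries, and the rule that names them uses their symbols alone. The libraries came from mouse sciatic nerve from newborns on postnatal day 1 (P1) and adults on day 60 (P60), with 3 biological replicates per age, and each was made from dissociated cells with the 10x Chromium Single Cell 3' kit, which counts captured RNA molecules per cell by unique molecular identifiers (UMIs). All animals, at both ages, were P0Cre-/+ : ReYFP Tg/+ : βAct-DsRed Tg/+ on the C57bl/6J background, and each suspension pooled both sexes. The Cre turns on a yellow reporter in Schwann cells, while the DsRed transgene labels cells of every kind. Cells with DsRed were sorted, and at P1 a part of the cells that also carried the yellow reporter was sorted away, so the number of Schwann cells at P1 was set by the sort. The nerves were not perfused. A p-value between the ages measures the spread between these 3 and 3 libraries.

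PDGFs are secreted dimers that bind receptor tyrosine kinases. The products of Pdgfa and Pdgfc act mainly through the receptor encoded by Pdgfra, which is known from fibroblasts and mesenchymal progenitors, and those of Pdgfb and Pdgfd mainly through the receptor encoded by Pdgfrb, which is known from pericytes and smooth muscle. PDGF-C and PDGF-D are made in a latent form that proteases outside the cell activate, and PDGF-B from endothelium is the textbook signal that brings pericytes to vessels. In nerve, PDGFs are also known as growth and survival factors of Schwann cells in culture.

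The libraries held 3435 to 4586 cells and between 20092957 and 29371559 UMIs each, and any pair of libraries shared 13 to 32 cell barcodes. The 6 genes together were thin in places: Pdgfc gave 2246 UMIs over all cells, Pdgfd 2452, Pdgfb 2703, Pdgfa 7965, Pdgfrb 8921 and Pdgfra 18455. P60 replicate 3 stood apart from the other P60 libraries, with 2143 UMIs per 1000000 UMIs (CPM) of 14 ribosomal pseudogenes against 490 and 600, with Malat1 at 65723 CPM against 33480 and 37733, and with 16.2% of its cells above 10% mitochondrial counts against 2.97% and 4.84%. Results that changed without it are given both ways.

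In the GENCODE M21 annotation of GRCm38, Pdgfa lies on chromosome 5 (138976014 to 138997370, minus strand), Pdgfra on chromosome 5 (75152292 to 75198215, plus strand), Pdgfb on chromosome 15 (79995874 to 80014977, minus strand), Pdgfc on chromosome 3 (81036416 to 81214040, plus strand), Pdgfd on chromosome 9 (6168584 to 6378850, plus strand) and Pdgfrb on chromosome 18 (61045150 to 61085061, plus strand). On the same strand they overlap only microRNA genes, Mir7213 in Pdgfb and Mir7025 in Pdgfra. Genes of the opposite strand overlap all of them but Pdgfrb, and whether the counting used the strand is not given in the sources used here.

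Cells were clustered separately at each age without these 6 genes, and clusters were named from marker lists that hold none of them. Fibroblasts (5139 cells at P1 and 7852 at P60) fell into endoneurial cells (1362 and 862) inside the fascicle, perineurial cells (1203 and 2459) of the sheath around it and epineurial cells (1981 and 4531) of the outer layer. Endothelial cells numbered 727 and 1804, Schwann cells 3521 and 420, and immune cells 1049 and 1388. Mural cells, which wrap vessels (599 and 844), held pericytes (446 and 184) and vascular smooth muscle cells (153 and 533), and 127 mural cells at P60 had no subtype. The broad classes carried their own markers: 5 fibroblast markers summed to 25842 to 36737 CPM in fibroblasts over the libraries, 10 endothelial markers to 7634 to 10859 CPM in endothelial cells, 10 mural markers to 11866 to 26952 CPM in mural cells and 9 Schwann markers to 21289 to 31603 CPM in Schwann cells. In perineurial cells 10 perineurial markers summed to only 705 to 738 CPM at P1, against 5531 to 5602 CPM at P60. The P1 cells of this name also held 1132 to 1200 CPM of 8 epineurial markers. The paper calls its own P1 perineurial assignment tentative. The part of this difference in identity in the perineurial changes with age was not tested. A group of 294 P60 cells carried mural and endothelial markers together and entered no class, and 700 P1 cells, 94.4% of them above 10% mitochondrial counts, stayed unnamed. Levels below are CPM, the UMIs of a gene per 1000000 UMIs, summed over the cells of a class in 1 library. A change with age is a log2 fold change, P60 over P1, from edgeR's quasi-likelihood test on these sums, with Benjamini-Hochberg adjustment over all genes tested in the class and a threshold of 0.05. The classes were cut from the same cells, so classes of 1 age were not tested against each other, and neighbours in an order are set apart only where their ranges over the libraries did not overlap.

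**Figure D1:**
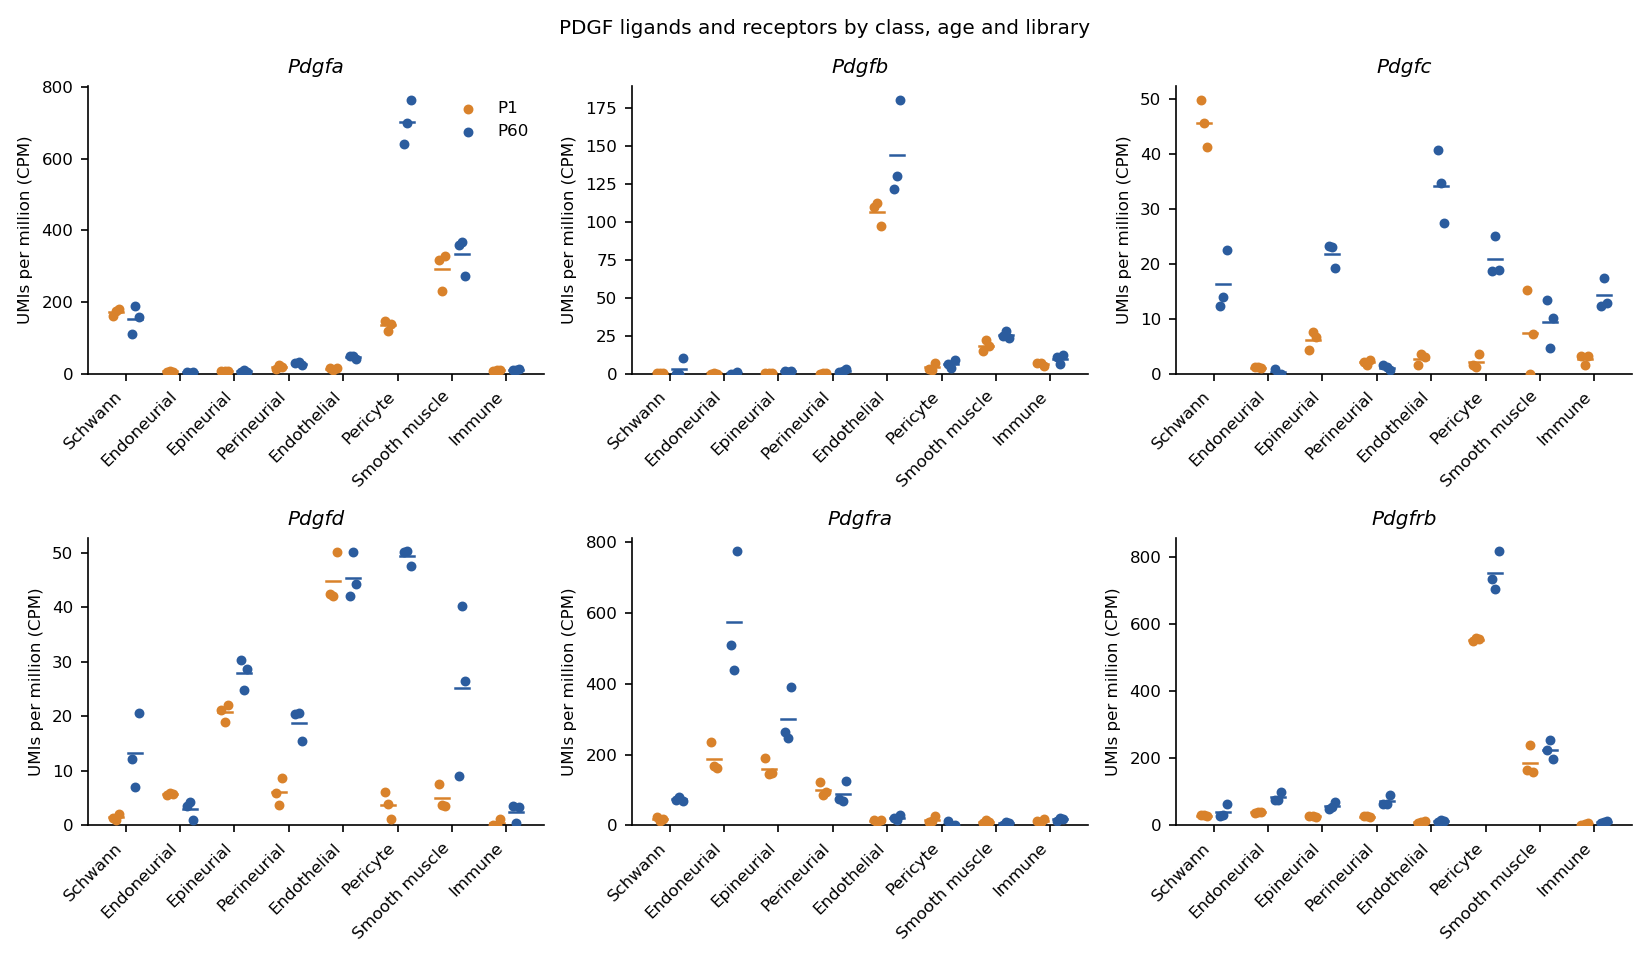
Level of each gene in CPM (linear axis) in 8 classes at P1 (orange) and P60 (blue). Each point is 1 library and each bar the mean of 3 libraries. Pdgfa in pericytes lies at 121 to 147 CPM at P1 and at 640 to 764 CPM at P60, Pdgfb lies highest in endothelial cells at both ages, and Pdgfra in endoneurial cells rises above 430 CPM in every P60 library.

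Pdgfa, whose product binds the receptor encoded by Pdgfra, was highest in vascular smooth muscle cells at P1 and in pericytes at P60, with Schwann cells among the upper 3 classes at both ages. In pericytes it stood at 147, 121 and 140 CPM in the P1 libraries and at 640, 699 and 764 CPM in the P60 libraries. All P60 libraries lay far above all P1 libraries, and Pdgfa rose by a log2 change of 2.36 ± 0.15 (SE, edgeR, adjusted p = 6.43e-09). The P60 pericytes were few, and counting the 127 mural cells without subtype as pericytes lowered their Pdgfa to 451, 547 and 498 CPM, with a log2 change of 1.86 ± 0.15 (SE, edgeR, adjusted p = 1.26e-07).

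In smooth muscle cells Pdgfa stood at 316, 232 and 329 CPM at P1 and at 358, 369 and 273 CPM at P60. The ages overlapped, and the log2 change of 0.36 ± 0.17 did not pass the test (SE, edgeR, adjusted p = 0.126), although it did without P60 replicate 3 (0.46, adjusted p = 0.0152). Schwann cells held 162, 176 and 182 CPM of Pdgfa at P1 and 110, 190 and 158 CPM at P60. The P60 libraries spread over both sides of the P1 range, with a log2 change of -0.22 ± 0.16 (SE, edgeR, adjusted p = 0.323). This value moved with 1 library and with the cells taken: without P60 replicate 2 it was -0.51 (edgeR, adjusted p = 0.0299), and in the Schwann sub-clusters that carried myelination markers (1877 and 152 cells) Pdgfa went from 173 ± 16.0 to 114 ± 27.2 CPM (SD, n = 3 each), a log2 change of -0.63 (edgeR, adjusted p = 0.0282) where 26.9% of 9661 genes passed.

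Endothelial cells had little Pdgfa at P1 (15.4, 11.3 and 16.2 CPM) and more at P60 (50.7, 50.3 and 41.8 CPM). The ages did not overlap, and Pdgfa rose by 1.75 ± 0.19 in log2 units (SE, edgeR, adjusted p = 1.73e-05). Mural markers in endothelial cells moved with it, from 2.20% to 4.09% of their mural level at P1 to 5.30% to 8.996% at P60, beside Pdgfa at 7.56% to 8.60% and 10.99% to 12.8% of the mural Pdgfa level, and their part in the rise was not tested. Perineurial cells were the fibroblast layer with the most Pdgfa, at 15.03, 23.7 and 18.1 CPM at P1 and 29.6, 32.0 and 23.9 CPM at P60. The highest P1 and the lowest P60 library nearly touched, and the log2 change of 0.60 ± 0.19 (SE, edgeR, adjusted p = 0.0206) did not pass without P1 replicate 1 (0.46, adjusted p = 0.107), P1 replicate 3 (0.56, 0.0839) or P60 replicate 2 (0.50, 0.0719). Nor did it pass with 50 cells per class and library (0.23, adjusted p = 0.649), with the 6 genes kept in the clustering (0.42, 0.126), with another clustering seed (0.39, 0.149) or with normalization to 100000 (0.45, 0.0713). Mural markers in perineurial cells rose from 2.99% to 3.04% of their mural level at P1 to 10.4% to 15.6% at P60, while perineurial Pdgfa stood at 7.69% to 15.9% and 6.98% to 7.48% of the mural Pdgfa level, and the part of these markers in the change was not tested. Endoneurial and epineurial cells stayed below 11 CPM in every library at both ages, with log2 changes of -0.64 and -0.04 that did not pass. The order of the classes at P60 was pericytes, smooth muscle, Schwann, endothelial and perineurial cells, each of these apart from the next over the libraries, and then immune, epineurial and endoneurial cells.

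Pdgfb, the ligand known for pericyte recruitment, was an endothelial gene at both ages. Endothelial cells held 110, 112 and 97.0 CPM at P1 and 121, 130 and 180 CPM at P60, and the next class, smooth muscle cells, held 15.2 to 22.4 CPM at P1 and 23.9 to 28.4 CPM at P60. The endothelial P60 libraries lay just above the P1 libraries, the highest being P60 replicate 3, and the log2 change was 0.45 ± 0.15 (SE, edgeR, adjusted p = 0.0353). This call was lost when P1 replicate 1 (0.47, adjusted p = 0.0855), P1 replicate 2 (0.49, 0.0765) or P1 replicate 3 (0.37, 0.153) was left out. In mural cells as a whole Pdgfb rose from 6.59, 7.71 and 10.1 CPM to 21.6, 22.5 and 22.4 CPM, with no overlap and a log2 change of 1.55 ± 0.30 (SE, edgeR, adjusted p = 0.00231). The endothelial markers, summed over mural cells, stood at 4.73% to 5.14% of the endothelial level at P1 and at 3.48% to 6.45% at P60, and mural Pdgfb at 6.02% to 10.4% and at 12.4% to 17.8% of the endothelial Pdgfb level. The share of smooth muscle cells, the mural cells with more Pdgfb, was also higher among the P60 mural cells, and its part in the change was not tested. Immune cells held 6.997, 7.20 and 5.18 CPM at P1 and 11.3, 6.67 and 12.5 CPM at P60, which overlapped (log2 change 0.72 ± 0.31, SE, edgeR, adjusted p = 0.0841).

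In the fibroblast layers Pdgfb stayed below 3.3 CPM in every library. That was at or under the level that the endothelial markers had there relative to endothelial cells (0.862% to 3.25%, against 0% to 1.81% for Pdgfb), so no fibroblast expression is read from it, although over all fibroblasts its small level rose by 2.01 on the log2 scale (edgeR, adjusted p = 0.0024) from 18 to 76 UMIs.

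Pdgfc, a ligand of the receptor encoded by Pdgfra, changed its place between the ages. Schwann cells led at P1, with 49.9, 45.6 and 41.4 CPM, and fell to 12.3, 14.1 and 22.6 CPM at P60. The ranges were far apart, and Pdgfc fell by 1.48 ± 0.27 in log2 units (SE, edgeR, adjusted p = 0.000749), although only 21 UMIs stood behind the P60 value. In the myelinating sub-clusters it went from 51.2 ± 6.90 to 19.3 ± 17.6 CPM (SD, n = 3 each), a log2 change of -1.44 (edgeR, adjusted p = 0.0368). Immature or non-myelinating Schwann cells at P1 held 40.2 to 42.1 CPM of Pdgfc and dividing ones 26.9 to 42.4 CPM, so the gene was not limited to a single Schwann group at P1.

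Endothelial cells went the other way, from 1.65, 3.597 and 3.03 CPM of Pdgfc at P1 to 40.7, 34.7 and 27.4 CPM at P60. Each P60 library lay well above each P1 library, and Pdgfc rose by 3.62 ± 0.30 in log2 units (SE, edgeR, adjusted p = 2.30e-06). The rise lay in 1 of the 2 P60 endothelial clusters. The cluster with blood-nerve barrier markers such as Slco1a4 (984 cells, 252, 353 and 379 of them per library) held 60.6, 50.6 and 43.8 CPM, while the other P60 cluster (820 cells) held 2.99, 3.72 and 1.57 CPM, within the range seen at P1. Pdgfc is among the genes of these cells, but it was kept out of the clustering.

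Epineurial cells held 4.34, 7.66 and 6.67 CPM of Pdgfc at P1 and 23.2, 23.1 and 19.3 CPM at P60. The ages did not overlap, and the log2 change was 1.77 ± 0.20 (SE, edgeR, adjusted p = 5.39e-05). Of the 2 epineurial clusters at P60, the one led by Pi16 and similar genes (1974 cells) held 43.2, 39.5 and 25.3 CPM and the one led by Comp and Cilp (2557 cells) 8.10, 8.67 and 11.6 CPM, so the cells with Pi16 were higher in every library. Immune cells also rose, from 3.31, 1.60 and 3.33 to 12.4, 17.4 and 12.97 CPM (log2 change 2.41 ± 0.33, SE, edgeR, adjusted p = 0.000186). At P60 the immune cluster with the macrophage genes Pf4, C1qa and C1qb held 18.7 to 30.7 CPM of Pdgfc and the other immune cluster 1.31 to 2.21 CPM. Pericytes stood at 1.30 to 3.69 CPM at P1 and 18.8 to 25.1 CPM at P60, on 5 and 13 UMIs, and were too thin to be tested. Endoneurial and perineurial cells stayed under 2.5 CPM in every library at both ages.

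Pdgfd, a ligand of the receptor encoded by Pdgfrb, had its highest level at P1 in endothelial cells (42.4, 42.1 and 50.02 CPM), and this level stood where it was at P60 (42.0, 50.05 and 44.2 CPM). The ages overlapped in full, with a log2 change of 0.04 ± 0.14 (SE, edgeR, adjusted p = 0.85) whose sign changed between alternatives. Arterial endothelial cells were higher than the endothelial mean in every library, at 76.5 to 97.2 CPM at P1 and 76.1 to 114 CPM at P60, and lymphatic ones at P60 lower, at 5.63 to 8.99 CPM. Epineurial cells came second at P1, with 21.2, 18.9 and 22.02 CPM, and held 30.4, 24.8 and 28.7 CPM at P60. These ranges did not overlap, but the log2 change of 0.40 ± 0.14 (SE, edgeR, adjusted p = 0.0338) did not pass when any 1 of 4 libraries was left out (P1 replicate 1, 0.43, adjusted p = 0.0713; P1 replicate 2, 0.33, 0.145; P1 replicate 3, 0.44, 0.0715; P60 replicate 1, 0.34, 0.114) and was 0.02 with another clustering seed (0.945). The endothelial markers in epineurial cells stood at 1.35% to 1.67% of their endothelial level, against 44.0% to 72.3% for Pdgfd.

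Mural cells gained Pdgfd with age. Pericytes went from 6.17, 3.90 and 1.23 CPM at P1 to 50.2, 50.3 and 47.5 CPM at P60, on 8 and 30 UMIs. The ages were far apart and the P60 libraries close together, with a log2 change of 3.67 ± 0.48 (SE, edgeR, adjusted p = 1.82e-05). Endothelial markers in P60 pericytes stood at 4.37% to 6.02% of their endothelial level, against 100.4% to 119% for Pdgfd. Smooth muscle cells went from 7.62, 3.74 and 3.62 CPM to 9.01, 40.2 and 26.4 CPM, which did not overlap but spread widely at P60 and was not tested because the P1 count was 4 UMIs. Over all mural cells the log2 change was 3.14 ± 0.42 (SE, edgeR, adjusted p = 0.000241). Perineurial cells rose as well, from 5.95, 3.78 and 8.79 CPM to 20.4, 20.6 and 15.5 CPM, a log2 change of 1.58 ± 0.26 (SE, edgeR, adjusted p = 0.000284), and the larger of the 2 perineurial clusters at P60 (1993 cells) held 16.8 to 23.2 CPM against at most 6.72 CPM in the smaller (466 cells). Schwann cells had 1.37, 0.96 and 2.06 CPM at P1 and 12.3, 7.03 and 20.6 CPM at P60 (log2 change 3.13 ± 0.55, SE, edgeR, adjusted p = 0.000545), on 17 UMIs at P60. At P60 the Schwann sub-cluster led by fibroblast genes such as Dpt and Clec3b held 9.85 to 37.2 CPM, and epineurial markers in P60 Schwann cells stood at 9.51% to 21.3% of their epineurial level against 1.76% to 1.81% at P1. Their part in the Schwann change of Pdgfd was not tested. Endoneurial Pdgfd was 5.57 to 5.97 CPM at P1 and 1.05 to 4.27 CPM at P60, a log2 change of -0.86 ± 0.45 that did not pass (SE, edgeR, adjusted p = 0.132).

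**Figure D2:**
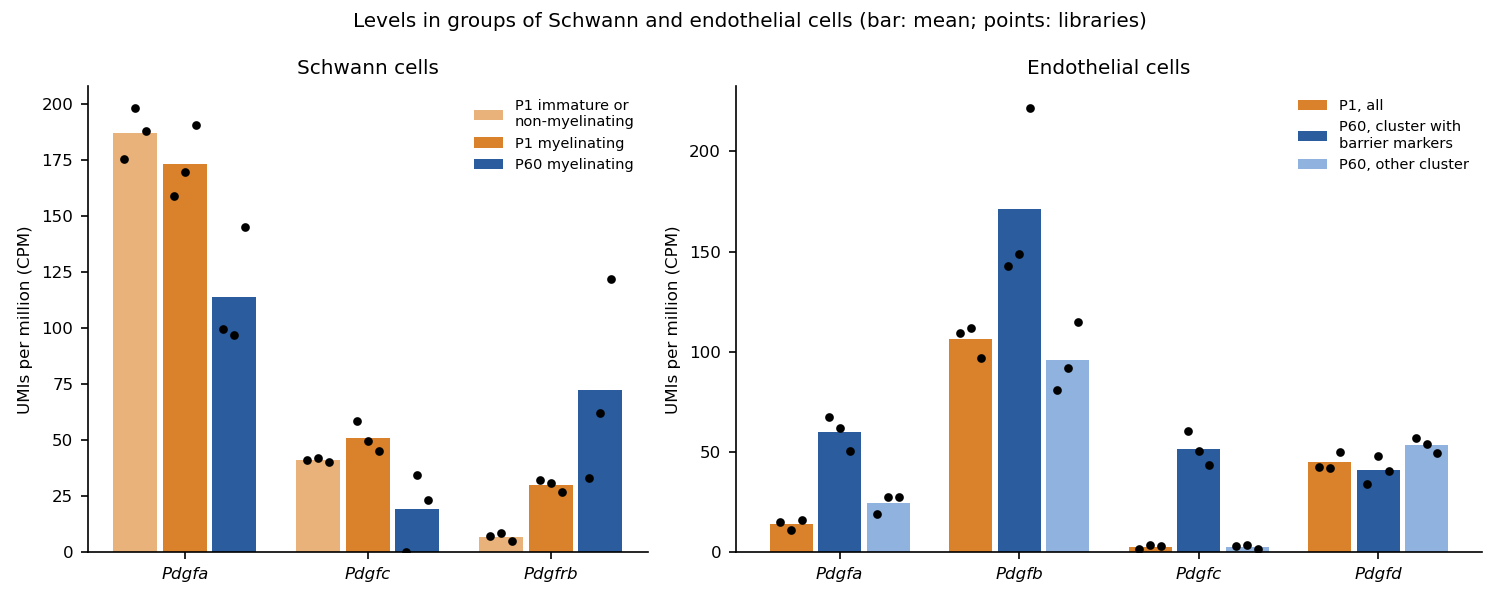
CPM (linear axis from 0) in groups of Schwann cells (left) and endothelial cells (right), with bars for the mean of 3 libraries and points for libraries. Pdgfc in the P60 endothelial cluster with barrier markers lies at 43.8 to 60.6 CPM and in the other P60 cluster at 1.57 to 3.72 CPM, and Pdgfrb in P1 myelinating Schwann cells lies above that in immature ones.

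The same 2 endothelial clusters differed in the other ligands. Arterial (62, 82 and 63 cells in the P60 libraries) and lymphatic cells (28, 40 and 48) lay within these 2 clusters. They are thus not separate groups, and their part in the differences was not tested. Pdgfa stood at 67.4, 62.0 and 50.8 CPM in the cluster with barrier markers and at 19.0, 27.5 and 27.5 CPM in the other, and Pdgfb at 143, 149 and 222 CPM against 80.8, 92.1 and 115 CPM, so the first cluster was higher in each library for both. Pdgfd was at 34.2 to 47.9 CPM in the first and 49.6 to 56.9 CPM in the second. When the cluster with barrier markers was left out of P60, 35.7% of 9923 genes passed. The log2 change of endothelial Pdgfb then turned to -0.17 ± 0.15 (SE, edgeR, adjusted p = 0.424), and that of Pdgfa was 0.78 ± 0.24 (SE, adjusted p = 0.0258). Pdgfc, at 2.76 CPM at both ages, was too low to be tested. All P1 endothelial cells, arterial ones among them, stayed in this comparison. Its 2 ages may thus differ in make-up, and the part of that in these values was not tested. Arterial endothelial cells held Pdgfb at 138 to 141 CPM at P1 and 144 to 195 CPM at P60, and lymphatic ones 11.3 to 36.0 CPM at P60. Arterial Pdgfa was 3.92 to 16.5 CPM at P1 and 63.7 to 99.1 CPM at P60, without overlap.

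Pdgfra, the receptor gene of fibroblasts, was highest in the 3 fibroblast layers at both ages, and the layers moved differently with age. Endoneurial cells held 236, 169 and 161 CPM at P1 and 508, 438 and 774 CPM at P60. All P60 libraries were above all P1 libraries, the highest being P60 replicate 3, and Pdgfra rose by 1.68 ± 0.19 in log2 units (SE, edgeR, adjusted p = 7.50e-06), or by 1.44 without that library (adjusted p = 1.23e-09). Epineurial cells held 189, 145 and 147 CPM at P1 and 264, 247 and 390 CPM at P60. They too did not overlap, with a log2 change of 0.87 ± 0.18 (SE, edgeR, adjusted p = 0.00235), or 0.66 without P60 replicate 3 (adjusted p = 7.08e-06). Perineurial cells held 122, 86.9 and 93.9 CPM at P1 and 74.1, 70.02 and 125 CPM at P60. These overlapped, and the log2 change of -0.19 ± 0.21 did not pass (SE, edgeR, adjusted p = 0.469). It rested on P60 replicate 3: without that library perineurial Pdgfra fell by 0.47 on the log2 scale (edgeR, adjusted p = 4.99e-05), and without any other library it did not pass.

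At P1 endoneurial and epineurial levels of Pdgfra overlapped and perineurial cells lay below both, whereas at P60 the endoneurial libraries lay above all epineurial ones and these above all perineurial ones. The 593 dividing fibroblasts of P1 held 155, 124 and 144 CPM of Pdgfra, between the layers. The unnamed P1 group with high mitochondrial counts held more than any named P1 class, at 475, 335 and 384 CPM, and 74.7 to 105 CPM of Pdgfrb. At P60 the epineurial cluster with Comp and Cilp held 290, 274 and 450 CPM of Pdgfra and the cluster with Pi16 229, 216 and 344 CPM, the first being higher in each library.

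Outside fibroblasts, Pdgfra was read beside the fibroblast markers found in the same cells. Schwann cells held 23.3, 13.97 and 17.1 CPM at P1 and 70.6, 79.7 and 69.9 CPM at P60, a log2 change of 1.97 ± 0.25 without overlap (SE, edgeR, adjusted p = 5.06e-05). The P60 values reached the lower end of the perineurial range. The 5 fibroblast markers in Schwann cells stood at 18.9% to 20.02% of their fibroblast level at P1 and 17.5% to 34.3% at P60, and Schwann Pdgfra at 10.2% to 12.8% and 21.96% to 44.0% of the fibroblast level. The marker shares overlapped between the ages and the Pdgfra shares did not, so the ratio of the Pdgfra share to the marker share went from 0.54 to 0.64 at P1 to 1.21 to 1.28 at P60. At P60 the Schwann sub-cluster led by fibroblast genes (106 cells) held 214, 162 and 271 CPM, and at P1 the Schwann sub-cluster led by haemoglobin and fibroblast genes such as Dcn and Col6a3 (395 cells) held 197, 125 and 157 CPM. Without cells that had 10 or more UMIs of the fibroblast gene Dcn, the Schwann change was 0.58 ± 0.47 (SE, edgeR, adjusted p = 0.365). In the myelinating sub-clusters Pdgfra averaged 3.30 CPM in the P1 and 1.94 CPM in the P60 libraries. Endothelial cells held 14.3, 10.3 and 14.1 CPM at P1 and 21.7, 14.6 and 29.6 CPM at P60. That was 7.54% to 10.2% of the fibroblast level at P1 and 8.05% to 9.81% at P60. Fibroblast markers there stood at 5.58% to 7.26% at P1 and 5.01% to 5.71% at P60, and their part in the endothelial change was not tested. This change of 0.77 (edgeR, adjusted p = 0.0426) was -0.18 without cells rich in Dcn. The call was lost with any of 5 libraries left out (all but P60 replicate 2, values in the range 0.49 to 0.84). Mural cells held 9.89 to 22.9 CPM at P1 and 9.60 to 17.5 CPM at P60.

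**Figure D3:**
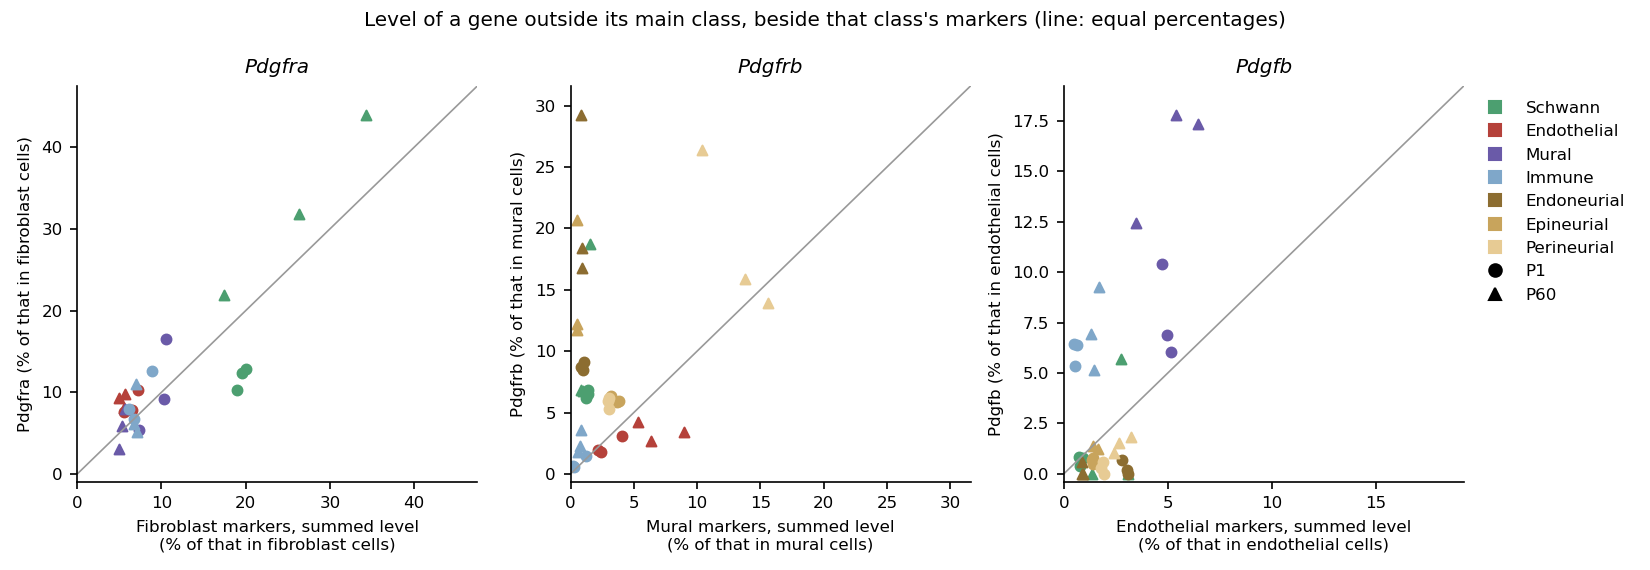
Level of Pdgfra (left), Pdgfrb (middle) and Pdgfb (right) outside the class where each is highest, as a percentage of the level there (vertical axis, linear), against the summed markers of that class as the same percentage (horizontal axis, linear), for P1 (circles) and P60 (triangles) libraries, with a line at equal percentages. Pdgfra in Schwann cells lies at 10.2% to 44.0% beside markers at 17.5% to 34.3%, and Pdgfrb in endoneurial and epineurial cells lies far above the line at P60.

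Pdgfrb, the receptor gene of mural cells, was highest in pericytes at both ages. Pericytes held 548, 557 and 554 CPM at P1 and 734, 704 and 816 CPM at P60. The P60 libraries were all higher, and the log2 change was 0.43 ± 0.13 (SE, edgeR, adjusted p = 0.0203), which did not pass without P1 replicate 1 (0.42, adjusted p = 0.0701), P1 replicate 2 (0.42, 0.0793), P1 replicate 3 (0.42, 0.0749) or P60 replicate 3 (0.32, 0.0587), nor with the P60 mural cells without subtype added (0.31, 0.0693), where 29.1% of 6613 genes passed. It also failed with no filter on low counts (0.26, adjusted p = 0.364), with 50 cells per class and library (0.41, 0.0693) and with normalization to 100000 (0.34, 0.0630). Smooth muscle cells held 164, 239 and 159 CPM at P1 and 225, 253 and 198 CPM at P60, lower than pericytes in each library. The ages overlapped, with a log2 change of 0.44 ± 0.19 that did not pass (SE, edgeR, adjusted p = 0.101) but did without P60 replicate 3 (0.50, 0.0255) or P1 replicate 2 (0.65, 0.0491).

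Over all mural cells Pdgfrb did not rise, at 437, 475 and 454 CPM at P1 and 406, 453 and 340 CPM at P60 (log2 change -0.09 ± 0.12, SE, edgeR, adjusted p = 0.606). The P60 mural cells held more smooth muscle cells (533 of 844) than those of P1 (153 of 599), and smooth muscle cells had the lower level, so the mural value mixes both. Within P1 pericytes, the largest sub-cluster (299 cells) held 636 to 663 CPM and the next (110 cells) 306 to 445 CPM.

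All 3 fibroblast layers rose in Pdgfrb. Endoneurial cells went from 38.0, 40.3 and 41.3 CPM to 74.7, 75.8 and 99.4 CPM (log2 change 1.14 ± 0.14, SE, edgeR, adjusted p = 1.28e-05). Epineurial cells went from 27.7, 28.4 and 26.5 CPM to 47.7, 55.4 and 70.1 CPM (1.03 ± 0.15, adjusted p = 0.00026). Perineurial cells went from 26.9, 28.2 and 24.2 CPM to 64.3, 63.2 and 89.5 CPM (1.44 ± 0.16, adjusted p = 1.42e-05). In none of the layers did the ages overlap, and P60 replicate 3 was the highest library in each. Beside this, mural markers at P60 stood at 0.838% to 0.928% of their mural level in endoneurial cells and 0.491% to 0.545% in epineurial cells, against 16.7% to 29.3% and 11.7% to 20.7% for Pdgfrb. In perineurial cells the mural markers stood at 2.99% to 3.04% at P1 and 10.4% to 15.6% at P60, with Pdgfrb at 5.32% to 6.16% and 13.9% to 26.3%, and their part in the perineurial rise was not tested.

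Schwann cells held 30.0, 30.8 and 28.1 CPM of Pdgfrb at P1 and 27.6, 30.5 and 63.7 CPM at P60. The P60 spread came from replicate 3, and the log2 change of 0.47 ± 0.26 (SE, edgeR, adjusted p = 0.163) was -0.11 without it. Within the P1 Schwann cells Pdgfrb differed by group: immature or non-myelinating cells held 7.25, 8.60 and 5.28 CPM, dividing cells 7.53, 2.99 and 6.54 CPM, and myelinating sub-clusters 32.4, 30.9 and 26.97 CPM. The sub-cluster led by haemoglobin and fibroblast genes (395 cells) was higher in every library, at 99.9 to 111 CPM, and held 217 of the 641 Pdgfrb UMIs of P1 Schwann cells. Mural markers in P1 Schwann cells stood at 1.24% to 1.39% of their mural level, against 6.19% to 6.87% for Pdgfrb, and fibroblast markers at 18.9% to 20.02% of the fibroblast level, where Pdgfrb stood at 30.7 CPM. The part of either in the Schwann value was not tested. With cells under 10% mitochondrial counts Schwann Pdgfrb was 24.6, 23.8 and 22.6 CPM at P1, with its mean below those of epineurial and perineurial cells in place of above them. In the P60 myelinating sub-clusters Pdgfrb stood at 33.3, 62.2 and 122 CPM, all above P1 but far apart from each other, with a log2 change of 1.28 ± 0.34 (SE, edgeR, adjusted p = 0.00762). Endothelial Pdgfrb, at 7.71 to 14.1 CPM at P1 and 11.03 to 15.6 CPM at P60, was 1.76% to 4.22% of the mural level, with mural markers there at 2.20% to 8.996%. Immune cells held 2.58 to 6.65 CPM at P1 and 7.11 to 12.1 CPM at P60, a log2 change of 1.31 ± 0.37 (SE, edgeR, adjusted p = 0.0159) that did not pass without P1 replicate 1 (1.04, adjusted p = 0.0674) or P1 replicate 2 (1.17, 0.0607).

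**Figure D4:**
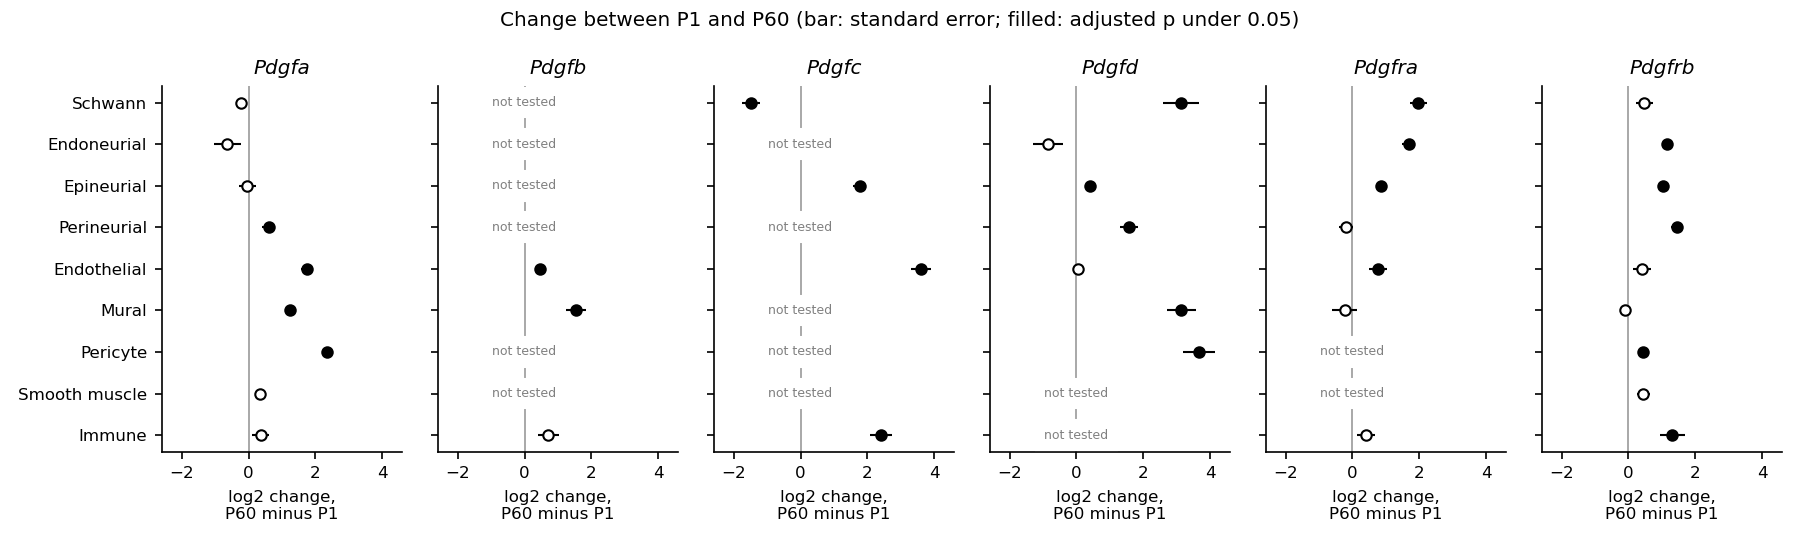
Log2 change between P1 and P60 (horizontal axis) of each gene by class, with bars for the standard error, filled points for an adjusted p under 0.05 and open points for the rest; pairs that were too low are marked as not tested. Pdgfc lies at -1.48 in Schwann cells and at 3.62 in endothelial cells, and Pdgfrb lies above 1 in all 3 fibroblast layers.

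Counted over classes, 30 of the 45 member and class pairs that could be tested passed in edgeR's quasi-likelihood test. The fibroblast class holds the cells of its layers and the mural class those of its subtypes. The pairs therefore overlap, and the share of all genes is given per class. In fibroblasts as a whole 6 of 6 members passed, where 60% of 14622 genes did. Of these, Pdgfra kept its call in 14 of 17 alternatives and Pdgfa in 13 of 16. The whole class also mixes layers whose numbers of cells differed between the ages. In epineurial cells 4 of 5 passed (47% of 12254 genes), in perineurial cells 3 of 4 (55.8% of 11811) and in endoneurial cells 2 of 4 (46% of 10872). In endothelial cells 4 of 6 passed (40.1% of 10882 genes), in Schwann cells 3 of 5 (40.4% of 11714) and in immune cells 2 of 5 (37.5% of 10264). In mural cells 3 of 5 passed (33.5% of 8399 genes), in pericytes 3 of 3 (25% of 5883) and in smooth muscle cells 0 of 2 (34.1% of 4603). In those smooth muscle cells 1 of the 2, Pdgfrb, passed edgeR at an unadjusted threshold of 0.05, and DESeq2 called 0 of 2 (adjusted p = 0.27 for Pdgfa and 0.226 for Pdgfrb). With so few members and so many genes that changed with age, these counts set the family apart from other genes in no class. The largest distance between share and background was in pericytes, where the 3 tested members were Pdgfa, Pdgfd and Pdgfrb. Of these, Pdgfd had 8 UMIs at P1 and 30 at P60. It met the filter on low counts through its P60 libraries alone, so its call adds no weight to this count. Pericyte Pdgfrb kept its call in 10 of 17 alternatives. With the mixed mural and endothelial cells counted as mural at P60 (39.9% of 9661 genes passed), 4 of 6 members passed in edgeR's test, with mural log2 changes of 0.65 for Pdgfa, 2.97 for Pdgfb, 1.75 for Pdgfc and 3.08 for Pdgfd.

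Whether a change differed between 2 classes was tested in 1 model per pair with the library as a block. Between endothelial and mural cells 3 of 6 members differed (17.9% of 11302 genes did): Pdgfd rose less in endothelial cells by 3.07 ± 0.39 (SE, edgeR, adjusted p = 1.47e-05), Pdgfb less by 0.98 ± 0.31 (adjusted p = 0.0325) and Pdgfa more by 0.55 ± 0.18 (adjusted p = 0.0381). Of the 6 fits that left out 1 library, Pdgfa passed in 1, without P60 replicate 2, and Pdgfb in 2, without P1 replicate 3 or P60 replicate 3. Between fibroblasts and mural cells 3 of 6 differed (18.2% of 14157 genes), among them Pdgfrb, which rose by 1.16 ± 0.14 more in fibroblasts (SE, edgeR, adjusted p = 9.43e-07). Over all mural cells the log2 change of Pdgfrb was -0.09, against 0.43 in pericytes and 0.44 in smooth muscle cells. Smooth muscle cells were 153 of 599 mural cells at P1 and 533 of 844 at P60. The part of this make-up in the differences from mural cells, that of Pdgfb included, was not tested. Between fibroblasts and Schwann cells 5 of 6 differed (28.4% of 15032 genes), the largest being Pdgfc at 3.66 ± 0.28 (SE, edgeR, adjusted p = 7.97e-12), up in fibroblasts and down in Schwann cells. Of the fibroblast layers only epineurial cells rose in Pdgfc. Its mean went from 1.16 to 0.29 CPM in endoneurial and from 2.13 to 1.17 CPM in perineurial cells, both too low to be tested. Between endoneurial and epineurial cells 3 of 5 differed (31.2% of 12766 genes). Pdgfra rose by 0.81 ± 0.08 more in endoneurial cells (SE, edgeR, adjusted p = 7.15e-13), while Pdgfc rose by 3.42 ± 1.05 less (adjusted p = 0.00798), on 1 UMI in endoneurial cells at P60. The rise of Pdgfrb did not differ between these layers at this depth (difference 0.10 ± 0.15, SE, edgeR, adjusted p = 0.652).

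**Figure D5:**
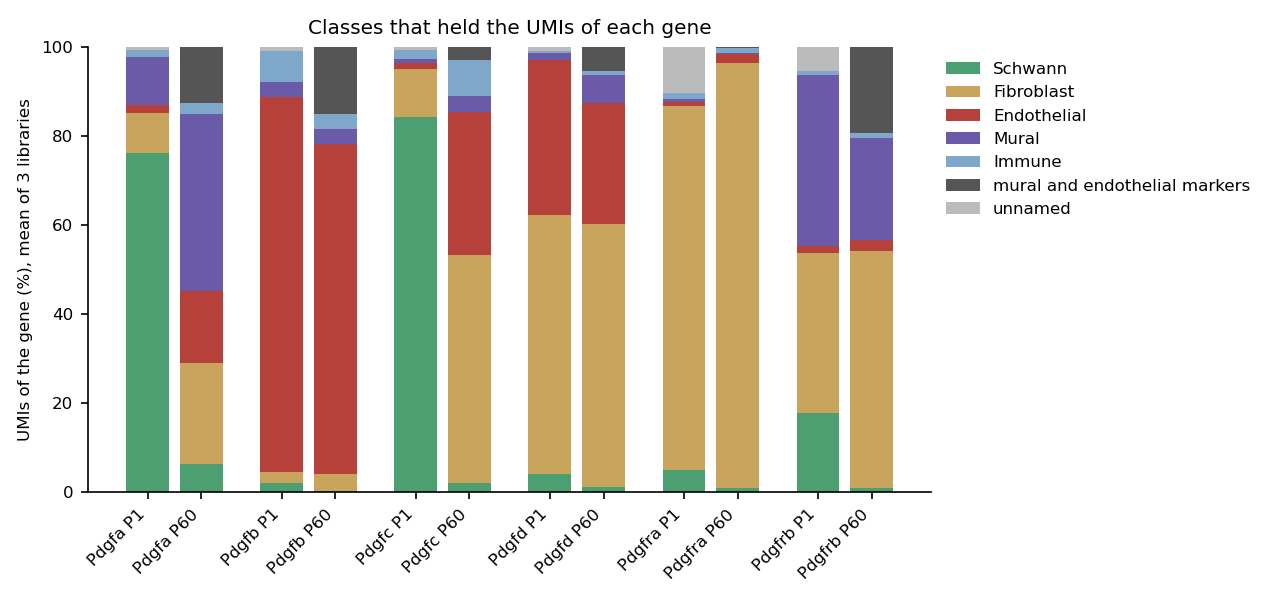
Percent of the UMIs of each gene found in each class (vertical axis, mean of 3 libraries, stacked to 100%), for P1 and P60. Schwann cells hold 76.2% of Pdgfa UMIs at P1 and 6.26% at P60, and fibroblasts hold 95.5% of Pdgfra UMIs at P60.

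Where the UMIs lay depends on how many cells of a class were sorted as well as on their level. At P1 Schwann cells, 30.0% of the cells, held 76.2% of the Pdgfa UMIs (74.5% to 77.4% over the libraries) and 84.3% of the Pdgfc UMIs (81.9% to 86.4%). At P60, when they were 3.27% of the cells, they held 6.26% and 2.15%. Mural cells then held 39.8% of the Pdgfa UMIs (31.9% to 51.1%), fibroblasts 51.1% of the Pdgfc UMIs (45.5% to 56.7%) and endothelial cells 32.1% of the Pdgfc UMIs (31.1% to 32.7%). Endothelial cells held 84.1% of the Pdgfb UMIs in P1 libraries and 74.0% in P60 libraries. For Pdgfd the fibroblast share was 58.2% and 59.2% and the endothelial share 34.6% and 27.3%.

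Of the receptors, Pdgfra UMIs lay in fibroblasts to 81.7% at P1 and 95.5% at P60. The unnamed P1 group, 5.89% of the cells, held another 10.3%. Pdgfrb was spread more widely: at P1 mural cells held 38.5%, fibroblasts 35.8% and Schwann cells 17.9%, and at P60 fibroblasts held 53.2% and mural cells 22.7%. The mixed mural and endothelial cells held 19.4% of the Pdgfrb UMIs at P60.

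Shares of cells with at least 1 UMI were compared after each cell was thinned to 1500 UMIs, since P60 cells were shallower. With 3 against 3 libraries the exact permutation test cannot give a p below 0.1, so none of these comparisons can pass a threshold of 0.05. The share of pericytes with Pdgfa went from 16.9% ± 0.56 at P1 to 57.4% ± 3.4 at P60 (SD, n = 3, exact permutation p = 0.1), without overlap. The share with Pdgfrb was 56.8% ± 1.8 and 69.2% ± 2.5 (exact permutation p = 0.1). Without thinning these pericyte shares were 43.0% and 78.8% for Pdgfa and 87.6% and 89.9% for Pdgfrb, at median depths of 4652 and 3107 UMIs. In endoneurial cells, taken as background for Pdgfa, the thinned share was 1.05% and 0.48%. Of endothelial cells, 15.8% ± 1.9 and 16.2% ± 3.3 had a UMI of Pdgfb (exact permutation p = 0.9), and 0.54% and 4.45% one of Pdgfc, or 46.6% and 43.7% and 2.15% and 13.7% without thinning. The Schwann share with Pdgfc was 6.38% and 2.96%, or 23.2% and 3.90% without thinning.

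Pdgfra was found in 24.5% ± 3.2 of endoneurial cells at P1 and 53.5% ± 9.4 at P60, in 22% and 35.7% of epineurial cells and in 13.8% and 12.3% of perineurial cells. In classes taken as background its UMIs lay in 2.66% and 2.85% of the endothelial cells and in 2.42% and 2.19% of immune cells, whose median depths before thinning were 6288 and 4456 UMIs and 6813 and 3728 UMIs. UMIs of both receptors in the same cell were found in 1.76% ± 0.18 of endoneurial cells at P1 and 6.26% ± 2.0 at P60 (SD, n = 3, exact permutation p = 0.1), in 1.22% and 3.15% of epineurial cells and in 0.75% and 1.75% of perineurial cells. The endoneurial libraries did not overlap between the ages, the perineurial ones did. Each receptor also rose in level in endoneurial cells, with log2 changes of 1.68 for Pdgfra and 1.14 for Pdgfrb. Whether cells with both were more common than these single levels would give was not tested. Without thinning the endoneurial shares were 79.0% and 76.2% for Pdgfra and 24.2% and 18.7% for both receptors, an order opposite to that after thinning, at median depths of 9431 UMIs at P1 and 3196 at P60. The unthinned epineurial shares with both receptors were 9.35% and 17.6% and the perineurial ones 9.18% and 15.9%.

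Other genes of the pathway were read from 4 lists: proteases that activate PDGFs, binding partners and regulators, signalling proteins, and receptors of the same kinase class with their ligands. Of 7 activating proteases, 4 of 6 tested rose and 2 fell in fibroblasts, where the 60% of all genes that changed split into 4551 up and 4217 down. Plau, which encodes urokinase, rose by 4.54 ± 0.27 on the log2 scale in epineurial cells (SE, edgeR, adjusted p = 5.29e-07). Plat, which encodes tissue plasminogen activator, an activator of PDGF-C, fell by 4.84 ± 0.38 in pericytes (SE, edgeR, adjusted p = 6.32e-08) and rose by 3.04 ± 0.14 in endothelial cells (adjusted p = 1.81e-08). The proprotein convertase gene Pcsk6 rose in endoneurial, epineurial, endothelial, immune and Schwann cells, by 4.16, 2.34, 1.503, 4.64 and 5.19 on the log2 scale (edgeR, all past the threshold). Its mean at P60 was 56.1 CPM in fibroblasts as a whole, 5.78 in endoneurial, 24.8 in Schwann, 16.8 in endothelial and 7.17 in immune cells. Fibroblast markers in the last 3 stood at 17.5% to 34.3%, 5.01% to 5.71% and 6.76% to 7.12% of their fibroblast level. Epineurial markers in endoneurial cells stood at 1.78% to 2.49% of their epineurial level at P1 and 8.88% to 11.8% at P60. The part of these markers in the rises was not tested.

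Of 14 binding partners and regulators, 7 rose and 4 fell of 14 tested in fibroblasts (60% of all genes passed), 6 rose and 2 fell of 13 in endothelial cells (40.1%), and 3 rose and none fell of 9 in pericytes (25%). Nrp1, a co-receptor of several growth factors, fell in each fibroblast layer, by 1.14 in endoneurial, 1.13 in epineurial and 2.16 in perineurial cells (edgeR, adjusted p of 9.24e-06, 1.25e-05 and 3.20e-08). Of 34 signalling proteins, 6 rose and 10 fell of 31 tested in endoneurial cells (46% of all genes passed), and 2 rose and 3 fell of 27 in pericytes (25%), both near or below the share over all genes. The adaptor gene Grb10 fell in all 3 layers, by 3.06 ± 0.12 in perineurial cells (SE, edgeR, adjusted p = 1.95e-09), as well as in endothelial cells (by 1.01) and pericytes (by 1.94). The list medians lay between -0.14 and 0.27 on the log2 scale in the 10 classes for the signalling proteins, against 0.01 to 0.04 for all genes.

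Of the 7 genes for receptors of the same kinase class and their ligands, 4 of 4 tested rose in endoneurial cells (46% of all genes passed) and 3 rose and 1 fell of 4 in endothelial cells (40.1%). Il34, a ligand of the receptor encoded by Csf1r, rose by 5.37 ± 0.42 in endoneurial, 4.34 ± 0.33 in perineurial and 3.22 ± 0.34 in epineurial cells (SE, edgeR, adjusted p of 2.15e-07, 5.08e-07 and 2.69e-05), and by 1.73 in pericytes. Kit fell by 3.64 ± 0.35 in endothelial cells (SE, edgeR, adjusted p = 6.94e-06). These lists hold genes that many other pathways use.

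Over 48 sums (8 classes in 6 libraries), the genes whose log2 levels were most like each member's were named from 9012 genes, as a description, since these sums share libraries and cell types. For Pdgfb they were Rnd1, Cd93 and Flt1 (Pearson's r 0.95, 0.95 and 0.93), the last being an endothelial marker. For Pdgfra they were Dcn, Mmp2 and Fez1 (0.92, 0.92 and 0.92), and for Pdgfrb Pla2r1, Dtx3 and Ift43 (0.92, 0.91 and 0.91). For Pdgfa they were Bcar3, Prkar1a and Hspb2 (0.93, 0.93 and 0.92) and for Pdgfd Fzd4, Jcad and Ppfibp1 (0.82, 0.81 and 0.80). Pdgfc had no close match: the highest was Mal at 0.68, a gene of myelinating Schwann cells that was also among the leading genes of the P60 endothelial cluster with barrier markers.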

How the data were processed

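The authors deposited, per library, a matrix of UMI counts with whole numbers for each gene and cell barcode, not normalized. Per the labels' processing notes, the submitters used Cell Ranger 2.0.2 and GRCm38.p5. Cells with 500 to 5000 genes were kept and clustered per age with Seurat 5.3.0 (10 principal components, 30 neighbours, resolution 0.5 at P1 and 0.4 at P60, 0.3 within a class, normalization to 10000) without the 6 genes among the variable genes, and classes were named from marker lists. Counts were summed per library and class and tested with edgeR 4.0.16 (quasi-likelihood, TMM, filterByExpr, R 4.3.3) at a Benjamini-Hochberg adjusted p of 0.05 over all genes tested, which was checked on simulated counts. The smallest sum in the main tests held 45 cells. Levels, shares of cells and correlations needed at least 20 cells per class and library. DESeq2 1.42.0 was an alternative. Shares of cells were thinned to 1500 UMIs. Scrublet doublets, 2.74% to 3.67% of a library at 0.8% per 1000 cells, were kept, and left out as an alternative. Libraries held 20092957 to 29371559 UMIs.

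The 6 members, the gene lists and the tests were chosen with earlier results of these data known. Named were all members in every class, per class up to 3 called pathway genes with the largest change in each direction, and for each member the 3 genes with the highest Pearson correlation of log2(CPM + 10) among genes with a mean of at least 10 CPM. Grb10 and Pcsk6 in epineurial cells were named after their values were seen. Of the gene identifiers, 41519 of 41605 were found in GENCODE M21, which gave the coordinates. Same-numbered replicates of the 2 ages were checked for pairing: their deviations from the age means correlated at -0.08 to 0.17 over the classes, so the numbers were not taken as pairs.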

Additional observations from a re-analysis of the deposited data

Results flagged for a closer look

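The change with age differed between classes for several members in edgeR's test of class by age. Between endothelial and mural cells the difference of log2 changes, endothelial minus mural, was 0.55 for Pdgfa, -3.07 for Pdgfd and -0.98 for Pdgfb. The Pdgfa difference passed in only 1 of the 6 fits that left out a library, without P60 replicate 2 (0.59, edgeR, adjusted p = 0.0459), with 0.47 to 0.62 over the 6. The Pdgfb difference did not pass when replicate 1 or replicate 2 of either age was left out (-0.85 to -0.93, edgeR, adjusted p of 0.0703 to 0.123). Between fibroblasts and mural cells, fibroblast minus mural, it was -0.75 for Pdgfa, -2.07 for Pdgfd and 1.16 for Pdgfrb. The share of smooth muscle cells in the mural class was higher at P60, and its part in these mural differences was not tested.

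Between fibroblasts and Schwann cells, fibroblast minus Schwann, it was 3.66 for Pdgfc, -1.13 for Pdgfra, 0.90 for Pdgfa, -1.88 for Pdgfd and 0.81 for Pdgfrb. The Pdgfra difference stood beside fibroblast markers in Schwann cells at 18.9% to 20.02% of their fibroblast level at P1 and 17.5% to 34.3% at P60, and their part in it was not tested. The Pdgfd difference was -1.27 without P60 replicate 3 (edgeR, adjusted p = 0.177). Between endoneurial and epineurial cells, endoneurial minus epineurial, it was -3.42 for Pdgfc, 0.81 for Pdgfra and -1.28 for Pdgfd. That of Pdgfd was -1.20 without P1 replicate 2, -1.39 without P60 replicate 1 and -0.90 without P60 replicate 3, none of which passed, and that of Pdgfc did not when the members were kept among the variable genes (-2.20, edgeR, adjusted p = 0.198). The fibroblast and Schwann difference of Pdgfrb was 0.46 with cells under 10% mitochondrial counts (edgeR, adjusted p = 0.134).

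Cells of P60 with mural and endothelial markers together, 2.33% of the P60 cells, were in no class, yet held 12.67% of the Pdgfa UMIs, 15.13% of the Pdgfb UMIs, 5.31% of the Pdgfd UMIs and 19.4% of the Pdgfrb UMIs. Their median depth was 8380 UMIs, against 3380 in mural and 4456 in endothelial cells of P60.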

How the results depend on the processing

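Of the 30 called member and class pairs, 21 kept their direction and stayed past the threshold in each of up to 17 alternatives that could be fitted. With 50 cells per class and library 11 pairs were called, but of 41 pairs followed through the alternatives only 21 could be tested there. The genes called fell to 1111 in Schwann cells, 1496 in fibroblasts, 1537 in endoneurial, 981 in epineurial, 2361 in perineurial and 1360 in endothelial cells, 880 in mural cells, 858 in pericytes, 994 in smooth muscle and 598 in immune cells, where the alternative itself holds fewer counts. The genes tested there are not given, so these counts carry no share. Leaving out 1 library, the Schwann count ranged from 2856 to 4714. With the replicate block 30 pairs were called, as without it, and it changed no call of a member. Genes called under that block ranged from 1321 (pericytes) to 8805 (fibroblasts), against 1469 and 8768 in the main tests, again without a share. Without the library as a block, 9 of the differences between classes were called in place of 14. The share of all genes was 17.9% to 31.2% with the library block and is not given without it. Whether the drop is particular to the members was therefore not tested.

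The log2 change of Pdgfd in Endothelial cells ranged from -0.0491 to 0.110 with 1 library left out, and was -0.21 with 50 cells, -0.0230 without Scrublet doublets and -0.0820 with normalization to 100000, against 0.040 in all. Schwann Pdgfrb ranged from -0.11, without P60 replicate 3, to 0.58. Schwann Pdgfa was 0.0722 with 50 cells and 0.0453 without cells with 10 or more Dcn UMIs. Endothelial Pdgfra was -0.10 without Scrublet doublets and -0.18 without cells rich in Dcn, and endothelial Pdgfb -0.17 without the P60 cluster with barrier markers, an alternative chosen after seeing the data, as were the myelinating, mixed and unsubtyped ones. The cause was not tested.

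For shares of cells, P60 minus P1 in percentage points, leaving out thinning gave -5.51 for both receptors in endoneurial cells, -2.75 for endoneurial Pdgfra, -5.14 for endoneurial Pdgfrb and -2.97 for endothelial Pdgfb, at median depths of 9431 UMIs at P1 and 3196 at P60 in endoneurial cells and of 6288 and 4456 in endothelial cells. Endothelial Pdgfb was also -0.45 without Scrublet doublets and ranged from -1.30, without P60 replicate 3, to 2.00 with 1 library left out, being -0.41 without P1 replicate 3, and Schwann Pdgfa was 0.077 at 1000 UMIs.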
